A study of Mus musculus with 8 samples.

Results

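Cd163l1 and 4 genes of innate-like and gamma-delta T cells (Zbtb16, Sox13, Trdc and Tcrg-C1) were examined in CD8+ T cells of the mouse spleen. The genes were chosen by symbol because Cd163l1 is far higher in one of the sorted subsets, to see whether other innate-like or gamma-delta genes accompany it. Of the 5 genes, 3 were examined here, among 29426 genes with counts. Trdc (chr14:54142851-54148868, plus strand) and Tcrg-C1 (chr13:19214103-19217024, plus strand), which encode the constant parts of the gamma-delta T cell receptor, were not analysed here. All 3 genes that were examined passed the expression filter, which kept 12313 genes.

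The 8 libraries formed 4 groups of 2: mCre-MP, WT-MP, mCre-TN and WT-TN. MP and TN are the labels of subsets sorted on CD44 and CD122, about 97% pure by the protocol text, with 20000 sorted cells per RNA extraction; the series' own design line writes VM where the sample titles write MP. WT and mCre are the genotype labels. The series title names miR-29 beside Cre, but the allele that mCre animals carried, the promoter of the Cre, the strain and the age of each animal (the protocol text speaks of adult or neonatal spleens) are each not stated in the sources used here. Whether the 2 libraries of a group came from separate animals is not stated either, so p-values measure the spread between these libraries, which may be technical.

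Cd163l1 encodes Scart1, a membrane protein with scavenger receptor cysteine-rich domains that in mice is best known from gamma-delta T cells; related WC1 proteins mark gamma-delta T cells of cattle. Zbtb16 encodes PLZF, the transcription factor that gives invariant natural killer T cells and some gamma-delta T cells their innate-like program. Sox13 encodes a transcription factor of the gamma-delta lineage, needed for the gamma-delta T cells that make interleukin 17. Memory-phenotype CD8+ T cells carry an alpha-beta receptor, yet respond to cytokines in the manner of innate lymphocytes.

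Total counts were 13479586 to 30057658 per library, with 14834 to 15722 genes detected. The sort markers Cd44 and Il2rb (the chain named CD122) were higher in MP, by 3.41 and 2.72 on the log2 scale in mCre and by 3.27 and 2.79 in WT. Cd8a, given as CPM (its reads per 1000000 reads counted), averaged 1792 ± 93.9 CPM in mCre-MP against 1732 ± 13.9 CPM in WT-MP. In TN it averaged 1681 ± 118 CPM in mCre and 1595 ± 28.2 CPM in WT (SD, n = 2 each). Cd3e, a chain that alpha-beta and gamma-delta receptors share, averaged 464, 505, 529 and 547 CPM in mCre-MP, WT-MP, mCre-TN and WT-TN. Cd4 had 3 to 10 counts per group. Markers of red-pulp macrophages, a cell type of the spleen, were summed over 12 genes, with none at 0 in any library. The sums were 20.5 to 26.1 CPM in the 4 mCre libraries and 39.2 to 62.3 CPM in the 4 WT libraries. Whether such cells were present was not tested, nor was their part in the genotype differences below.

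Cd163l1 and its neighbour 5830411N06Rik, which encodes the related receptor Scart2, lie side by side on chromosome 7. Cd163l1 spans chr7:140218267-140231145 on the plus strand, with 3851 exonic bases, and no annotated gene overlaps it. 5830411N06Rik spans chr7:140247284-140300736 on the same strand and begins 16139 bases downstream. The annotated transcripts of the pair share 0 stretches of 30 bases, and those of Cd163l1 and Cd163 share 0 as well. The sequences around the start sites of the pair are printed because both genes moved with the subset, as described below. Each window, from RefSeq on GRCm38.p6, holds 250 bases before the start and 50 from it on, 5′ to 3′ on the plus strand, with E-boxes (CANNTG, the letters that E proteins bind, read alike on both strands) in capitals. The windows are chr7:140218017-140218316 for Cd163l1 and chr7:140247051-140247350 for 5830411N06Rik, whose table entry lists 3 starts, the first of which is shown.
Cd163l1: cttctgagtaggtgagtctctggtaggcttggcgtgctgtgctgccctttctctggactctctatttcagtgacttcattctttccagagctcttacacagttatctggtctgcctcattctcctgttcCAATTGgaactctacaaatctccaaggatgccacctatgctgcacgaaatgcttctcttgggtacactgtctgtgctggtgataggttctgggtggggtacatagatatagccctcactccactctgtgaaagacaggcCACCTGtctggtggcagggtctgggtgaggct
5830411N06Rik: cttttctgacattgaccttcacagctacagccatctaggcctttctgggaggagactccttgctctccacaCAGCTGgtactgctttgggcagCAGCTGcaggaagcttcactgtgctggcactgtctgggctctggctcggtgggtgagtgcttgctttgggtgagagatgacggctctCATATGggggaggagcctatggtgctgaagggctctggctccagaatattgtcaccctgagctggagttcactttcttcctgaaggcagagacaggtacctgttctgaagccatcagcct
E-boxes began at bases 130 (CAATTG) and 269 (CACCTG) of the Cd163l1 window and at bases 72 (CAGCTG), 94 (CAGCTG) and 181 (CATATG) of the 5830411N06Rik window. An E-box was present in 72.3% of 32851 such windows, so this match is common. The T-box letters TCACACC (in 3.98% of windows), the Runx letters TGTGGT (16.8%) and the Sox letters AACAAT (10.7%), searched on both strands, were in neither window. The ROR letters AGGTCA (16.3%) were in that of 5830411N06Rik once, on the opposite strand from base 13, and not in that of Cd163l1. The 7 letters that pair to the miR-29 seed, TGGTGCT, were not in the longest annotated 3′ UTR of Cd163l1 (186 bases), Zbtb16 (2845 bases) or Sox13 (1662 bases), and were in 16.7% of 11649 such UTRs of tested genes. Of the other genes searched, Tbx21 had 1 match (in 701 bases), and Olfr524, Ikzf2 and Il12rb2 had none. For 5830411N06Rik there was no such UTR to search. A missing match says only that these letters are not in these windows.

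Cd163l1 was a high-level gene of MP cells and a low-level gene of TN cells. It had 908 and 831 CPM in mCre-MP, 1180 and 1114 CPM in WT-MP, 18.1 and 25.6 CPM in mCre-TN, and 7.34 and 4.25 CPM in WT-TN. The order of the group means from high to low was WT-MP, mCre-MP, mCre-TN, WT-TN. The group means were 869 ± 54.5, 1147 ± 46.8, 21.8 ± 5.30 and 5.80 ± 2.19 CPM in mCre-MP, WT-MP, mCre-TN and WT-TN (SD, n = 2 each). The log2 fold change of MP over TN was 5.37 (SE 0.23) in mCre and 7.69 (SE 0.28) in WT, a difference of -2.32 (SE 0.37). These subset values chose the gene and are a description. Among the 12313 genes tested, the change of Cd163l1 ranked 83 from the top in mCre and 29 in WT. In bulk RNA, fewer cells that express a gene and less RNA per cell cannot be told apart.

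**Figure D1:**
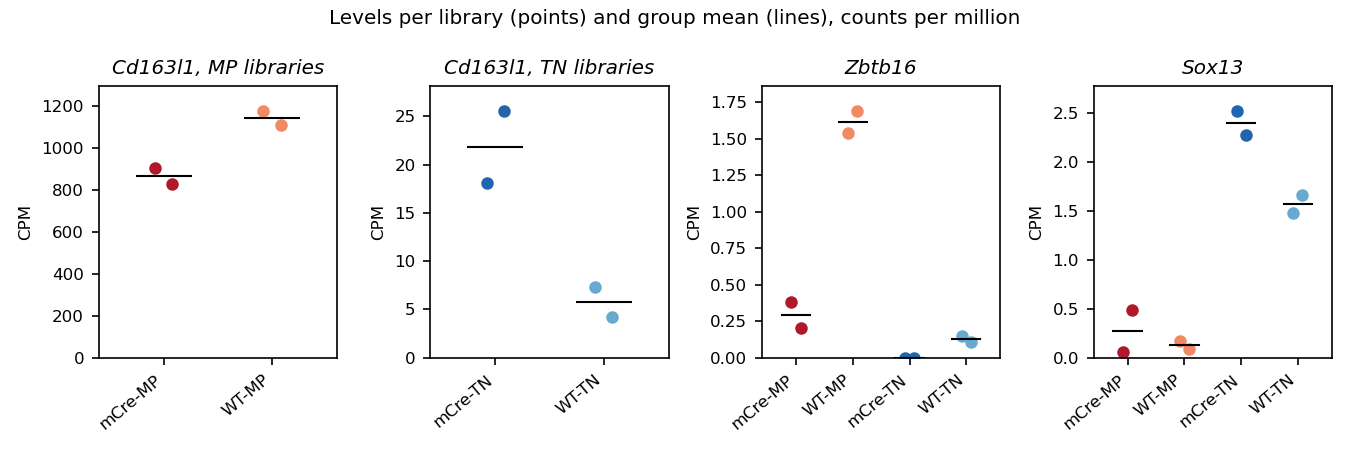
CPM (y axes from 0) of Cd163l1 in MP libraries and in TN libraries, and of Zbtb16 and Sox13 in all groups. Points are libraries and lines are means of 2; Cd163l1 sits between 831 and 1180 in MP and between 4.25 and 25.6 in TN, Zbtb16 is highest in WT-MP, and Sox13 is highest in TN.

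The genotype comparison was not used in choosing the genes and was tested with edgeR's quasi-likelihood test over all genes, with Benjamini-Hochberg adjustment and a call at an adjusted p under 0.05. In TN cells Cd163l1 was not called: the log2 fold change of mCre over WT was 1.93 (SE 0.32, adjusted p = 0.0652). Genes called in this comparison made up 3.47% of those tested (1.55% higher and 1.92% lower in mCre). The Cd163l1 call depended on the method: DESeq2 gave an adjusted p of 3.07e-06, and with mCre-TN replicate 1 left out edgeR gave 0.00758, and with replicate 2 left out 0.0214; over all 14 alternatives the adjusted p ran from 3.07e-06 to 0.247 and the log2 value from 1.53 to 2.32. In MP cells the log2 fold change was -0.40 (SE 0.18, adjusted p = 0.379), which was not called. Genes called there made up 4.04% (2.08% higher and 1.97% lower in mCre). A fit to the MP libraries alone gave an adjusted p of 0.000179, and over 14 alternatives the range was 0.000179 to 0.758. Across both subsets the value was 0.20 (adjusted p = 0.85).

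The level in TN was 2.51% of that in MP in mCre and 0.506% in WT. Beside it stand 36 genes, Cd163l1 among them, whose level averaged over both genotypes was over 32-fold higher in MP with at least 10 CPM there, a set chosen after its values were seen; within 1 genotype the ratio could be smaller. Over these genes the median TN level was 1.30% of the MP level in mCre and 1.12% in WT. Xcl1, which encodes a chemokine of activated CD8+ and natural killer cells, was at 1.42% in mCre and 0.323% in WT, whereas Ifng, which encodes interferon gamma, was at 0.652% in mCre and 1.63% in WT, Ccr2 at 0.564% in mCre and 1.03% in WT, and Cx3cr1 at 1.36% in mCre and 2.72% in WT. The last 2 encode chemokine receptors. Some of these percents rest on few counts in TN. Xcl1 had 13 counts in mCre-TN and 3 in WT-TN. Its ratio of mCre over WT in TN was 2.81, with an interval from counting error of 0.774 to 15.4, which includes 1. Ccr2 had 13 counts in mCre-TN and 19 in WT-TN. The part of carried-over MP cells in the TN values was not tested.

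Zbtb16 was found at a few counts per library, mostly in WT-MP. It had 7 and 5 counts in mCre-MP (0.381 and 0.204 CPM), against 36 and 37 in WT-MP (1.54 and 1.69 CPM). In TN cells it had 0 and 0 counts in mCre, against 2 and 2 counts in WT (0.148 and 0.108 CPM). A count of 0 over both mCre-TN libraries allows up to 0.0608 CPM, with the limit set at 3 counts over the group; limits and intervals here cover counting error only. Per kilobase of exon, Zbtb16 stood at 0.0722 and 0.0385 CPM in mCre-MP and at 0.291 and 0.320 CPM in WT-MP, whereas Cd163l1 stood at 236 and 216 in mCre-MP and 306 and 289 in WT-MP. The subset difference, again a description, was at least 4.60-fold higher in MP in mCre and 3.64 on the log2 scale in WT (SE 0.64).

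In MP cells Zbtb16 fell in mCre, with a log2 fold change of -2.49 (SE 0.51, adjusted p = 0.00809). The call rests on few counts. Only the WT-MP libraries held more than 7, so the gene passed the expression filter through the group where it was high. The MP and across-subset tests use that same group, so they are not independent of the filter and are given as a description. DESeq2 gave an adjusted p of 0.0637, and edgeR gave 0.168 without mCre-MP replicate 2, and with WT-MP replicate 1 or 2 left out 0.0554 or 0.0944, within a range of 0.00141 to 0.168 over 13 alternatives. In TN cells the 0 counts in mCre against 4 in WT amounted to at least 2.05-fold lower in mCre, which was not called (adjusted p = 0.182). Across both subsets the log2 value was -2.61 (SE 0.49, adjusted p = 0.00127), against a background of 11.0% called over all genes (5.06% up and 5.97% down in mCre). Most counts of Zbtb16 were in WT-MP (73), with 12 in mCre-MP, 4 in WT-TN and 0 in mCre-TN. The value across subsets therefore mostly repeats the MP comparison and is not separate support for it. A natural killer cell gene, Klre1, fell in mCre-MP as well, with 2.94 and 4.23 CPM there against 9.41 and 12.3 CPM in WT-MP. The part of natural killer cells in the Zbtb16 difference was not tested.

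Sox13 ran the other way between subsets. It had 1 and 12 counts in mCre-MP (0.0545 and 0.488 CPM), against 4 and 2 in WT-MP (0.171 and 0.0914 CPM). In TN cells it had 76 and 44 counts in mCre (2.53 and 2.28 CPM), against 20 and 31 counts in WT (1.48 and 1.67 CPM). All TN libraries lay above all MP libraries. The log2 fold change of MP over TN was -2.96 (SE 0.50) in mCre and -3.51 (SE 0.62) in WT; without mCre-MP replicate 2 the mCre value was -5.29. The subset with the most Cd163l1 RNA was the one with the least Sox13 RNA. Sox13 was not called between genotypes: mCre over WT was 0.59 in TN (SE 0.40, adjusted p = 0.488), 1.13 in MP (SE 0.80, adjusted p = 0.517) and 0.70 across both (adjusted p = 0.23). The MP value turned to -1.20 without mCre-MP replicate 2.

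The genes around Cd163l1 shared part of its pattern. 5830411N06Rik had 265 and 244 CPM in mCre-MP, 124 and 122 CPM in WT-MP, 30.2 and 42.2 CPM in mCre-TN, and 14.1 and 8.18 CPM in WT-TN. Here the mCre means were the higher ones in both subsets. On the log2 scale it rose in MP by 2.87 in mCre (SE 0.23, adjusted p = 0.00105) and by 3.53 in WT (SE 0.28, adjusted p = 0.00113). Between genotypes it was 1.71 higher in mCre-TN (SE 0.31, adjusted p = 0.0822) and 1.05 higher in mCre-MP (SE 0.20, adjusted p = 0.092), neither called, and 1.25 higher across both subsets (SE 0.20, adjusted p = 0.0206), which was. The last call was lost without any of 4 libraries (mCre-MP replicate 1, either WT-MP library, or WT-TN replicate 1), with adjusted p from 0.0583 to 0.0726. DESeq2 called it in TN (3.5e-05) and in MP (0.032), where the alternatives ran from 3.5e-05 to 0.276 and from 1.34e-08 to 0.358.

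Olfr524, an olfactory receptor gene on the minus strand at chr7:140198499-140205964, lies 12303 bases upstream of Cd163l1. It had 9.10 and 7.94 CPM in mCre-MP, 7.78 and 7.04 CPM in WT-MP, 1.40 and 1.50 CPM in mCre-TN, and 0.223 and 0.377 CPM in WT-TN. It rose in MP by 2.59 in mCre (SE 0.21, adjusted p = 1.32e-08) and by 4.56 in WT (SE 0.31, adjusted p = 6.88e-10) on the log2 scale. In TN it was higher in mCre by 2.18 (SE 0.39, adjusted p = 0.00288), and this was called in all 14 alternatives (adjusted p up to 0.0266). In MP the genotypes differed by 0.20 (SE 0.18, adjusted p = 0.632), and the difference between these genotype effects was -1.98 (SE 0.44, adjusted p = 0.109), called in 1 of 13 alternatives; such differences were called in 0.130% of genes (0.0487% higher and 0.0812% lower). Farther upstream the levels moved less: Mtg1, 67481 bases away, averaged 27.4 and 28.2 CPM in mCre-MP and WT-MP and 25.4 and 23.5 CPM in mCre-TN and WT-TN, and Paox, 81043 bases away, averaged 5.79, 6.51, 9.12 and 6.89 CPM in the same order. On the log2 scale edgeR called Mtg1 higher in MP in WT (0.28, adjusted p = 0.0227) and Paox lower in MP in mCre (-0.63, adjusted p = 0.0101). Olfr522 and Olfr523, between Mtg1 and Olfr524, had 0 counts in all libraries. Olfr525, 89713 bases downstream of Cd163l1, had 16, 11, 2 and 0 counts in mCre-MP, WT-MP, mCre-TN and WT-TN, higher in MP on few counts.

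**Figure D2:**
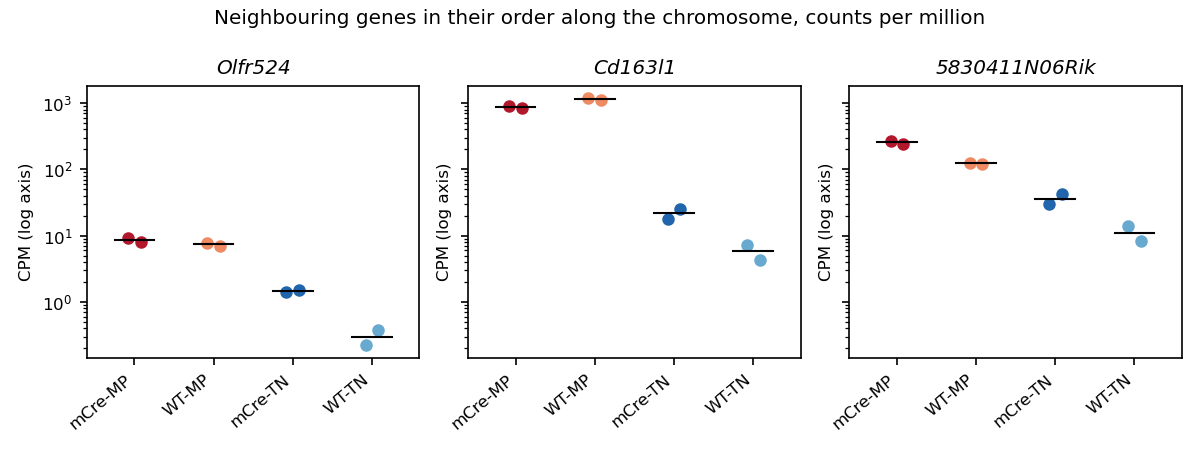
CPM on a shared log axis for Olfr524, Cd163l1 and 5830411N06Rik, per library (points) with the mean of 2 (line). All MP libraries lie above all TN libraries for each gene. The mCre-TN means lie above the WT-TN means, as in the library levels of 1.40 and 1.50 against 0.223 and 0.377 CPM of Olfr524.

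The pattern of Cd163l1 over the 8 libraries was also set against every other tested gene as a description; the 8 points fall into subsets, so a gene that differs between subsets correlates, and 963 genes had a Pearson r over 0.9 in log2 CPM. The closest were Gm11674 (r = 0.9972), Naip6 (0.9971), Klrc2 (0.9953), Mef2a (0.9952) and Plekhg3 (0.9942); with a prior count of 0.5 in place of 2, Klrc2 (0.993) and Plekhg3 (0.9941) were no longer among the closest 5. Klrc2, which encodes an activating receptor of natural killer cells, had 13.9 and 15.9 CPM in mCre-MP, 21.5 and 25.1 CPM in WT-MP, 0.466 and 0.518 CPM in mCre-TN, and 0.297 and 0.0538 CPM in WT-TN, the same order of groups as Cd163l1. Because Klrc2 was picked for its likeness to Cd163l1 in these libraries, its genotype values are a description. The log2 change of mCre over WT was -0.63 (SE 0.14) in MP and 1.59 (SE 0.60) in TN. Naip6 belongs to a family of closely similar genes, so its counts are uncertain. Of the other genes examined, Zbtb16 ranked 2071 (r = 0.754) and Sox13 11222 (r = -0.894) of 12312, while 5830411N06Rik ranked 417 (r = 0.953). With each subset centred on its own mean, which leaves genotype and replicate differences, the closest were Slc3a1 (0.9885), Map3k13 (0.981), Atf7 (0.9792), AI597479 (0.979) and Slc4a7 (0.9768), and 74 genes had an r over 0.9; with the prior count of 0.5 Slc4a7 (0.9771) left these 5. Of these 5, Slc4a7, a bicarbonate transporter, rose in mCre-TN by 0.39 (SE 0.09) on the log2 scale. These genes were picked for sharing the genotype and replicate differences of Cd163l1, so this rise is a description and not a separate test. On this centred measure Zbtb16 was at -0.256, Sox13 at 0.226 and 5830411N06Rik at 0.756.

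Genes of the gamma-delta lineage moved both ways between subsets. The list, chosen with earlier results of these data known, had 19 tested genes besides Sox13. In mCre, 5 rose and 7 fell in MP, with a median log2 change of -0.30 against 0.00 over all genes, and 32.5% of all genes were called. In WT, 6 rose and 7 fell, with a median of -0.24, against 31.7% of all genes called. The risen genes included Ccr2, a chemokine receptor, which had 51.0 and 52.0 CPM in mCre-MP, 63.9 and 61.1 CPM in WT-MP, 0.166 and 0.414 CPM in mCre-TN, and 0.964 and 0.323 CPM in WT-TN. The fallen ones included Sox4, a transcription factor of early gamma-delta cells that make interleukin 17, by 2.76 in mCre (adjusted p = 3.77e-08) and by 3.56 in WT (adjusted p = 5.65e-09). Sox5, its relative, had 1 count in mCre-MP and 85 in mCre-TN, a ratio of 0.0135 (95% interval 0.000339 to 0.0775), and 1 in WT-MP against 66 in WT-TN, a ratio of 0.0107 (0.000268 to 0.0619).

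Effector genes of interleukin 17-producing gamma-delta cells were low, several of them at or near the limit of counting. Il17a, the cytokine itself, had 0 counts in all 8 libraries, which allows up to 0.0699 CPM in mCre-MP, 0.0663 CPM in WT-MP, 0.0608 CPM in mCre-TN and 0.0936 CPM in WT-TN. Il17f, the related cytokine, was above the limit in every group, with 16 counts in mCre-MP against 17 counts in WT-MP (means of 0.360 and 0.380 CPM) and, among TN cells, 15 counts in mCre against 19 counts in WT (0.324 and 0.542 CPM), and was not called between subsets or genotypes. Il23r, the receptor that sustains such cells, had 2 counts in mCre-TN and 0 elsewhere. Il1r1 had 1 count in each group, and Ccr6, a chemokine receptor of these cells, had 4, 3, 2 and 1 counts in mCre-MP, WT-MP, mCre-TN and WT-TN. Il4, a cytokine of invariant natural killer T cells, was at 0 counts throughout. At this depth RNA of the genes at 0 to 4 counts was not detectable or barely so, which does not show that no such cell was present.

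Innate-like genes other than Zbtb16 were more often higher in MP. Of 27 tested genes, 16 rose and 5 fell in mCre (median log2 change 0.57) and 18 rose and 4 fell in WT (median 0.61), against 17.0% and 16.2% of all genes higher in mCre and in WT. This list too was chosen with earlier results of these data known. Some of its genes, Klrb1c and Xcl1 among them, passed the expression filter through MP, where they were high. The counts of risen and fallen genes are therefore a description. Tbx21, which encodes the transcription factor T-bet, had 143 and 125 CPM in mCre-MP, 152 and 154 CPM in WT-MP, 11.5 and 9.22 CPM in mCre-TN, and 10.4 and 7.64 CPM in WT-TN. Il18r1, a chain of the interleukin 18 receptor, had 618 and 558 CPM in mCre-MP, 638 and 659 CPM in WT-MP, 151 and 169 CPM in mCre-TN, and 167 and 175 CPM in WT-TN. Its log2 change in MP was 1.91 in mCre (adjusted p = 2.89e-14) and 1.94 in WT (adjusted p = 2.37e-14). Xcl1 had 18.6 and 14.3 CPM in mCre-MP, 28.4 and 27.9 CPM in WT-MP, 0.366 and 0.104 CPM in mCre-TN, and 0.0742 and 0.108 CPM in WT-TN, which made the WT ratio of MP over TN 301 (95% interval 103 to 1460), on 3 counts in WT-TN. Klrb1c, which encodes NK1.1, was at 0 counts in TN and at least 33.4-fold higher in MP in mCre and at least 25.5-fold in WT. Slamf6, a receptor that innate-like T cells use during selection, fell in MP by 0.60 in mCre (adjusted p = 1.51e-06) and by 0.81 in WT (adjusted p = 4.53e-08).

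**Figure D3:**
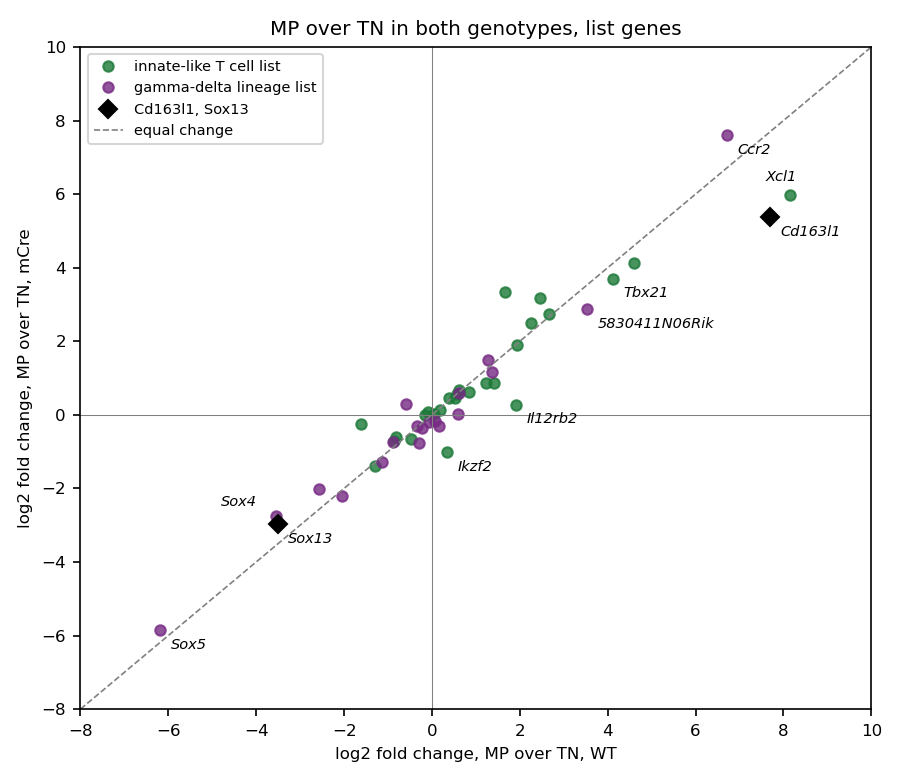
Log2 fold change of MP over TN in mCre (y axis) against that in WT (x axis) for genes of the innate-like list and of the gamma-delta lineage list, with Cd163l1 and Sox13 as black diamonds; genes with a group at 0 counts, Zbtb16 among them, are left out. Cd163l1 lies at 5.37 in mCre and 7.69 in WT, below the dashed line of equal change, and Sox13, Sox4 and Sox5 lie at the lower left.

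Markers of natural killer cells and innate lymphoid cells moved with MP as well: 9 of 11 tested rose and 1 fell in each genotype. The list of 15 summed to 1621 to 1695 CPM in MP libraries and 749 to 852 CPM in TN libraries. Most of that sum was Il7r, at 1154 to 1166 CPM in MP libraries and 576 to 664 CPM in TN libraries. The sum therefore mainly shows Il7r and not the defining markers given below. Of all genes, 17.0% were called higher in mCre and 16.2% in WT. Ncr1, Klrb1c, Klra8 and Klre1 had almost no counts in TN and passed the expression filter through MP. They could hardly have been called lower in MP, so the 9 of 11 is a description. Defining markers differed in level. Ncr1, an activating receptor, had 18 counts in mCre-MP, 20 in WT-MP and 0 in TN. Klrb1c had 87 counts in mCre-MP and 108 in WT-MP, Klra8, a receptor for class I molecules, had 16 in mCre-MP and 52 in WT-MP, and both were at 0 in TN. Klre1, a lectin-like receptor, had 158 counts in mCre-MP and 489 in WT-MP, against 1 in mCre-TN and 2 in WT-TN. Klre1 was the 1 gene of the 11 called between genotypes in MP, where 4.04% of all genes were: it fell in mCre by 1.58 (SE 0.24, adjusted p = 0.000618), and was called in all 14 alternatives (log2 value -1.88 to -1.36). The part of such cells in the Cd163l1 and Zbtb16 levels was not tested. Of 6 tested genes of the CD3 chains, Cd247 and the CD8 coreceptor, 0 rose and 3 fell in MP in mCre and 0 rose and 2 fell in WT, against 15.5% and 15.6% of all genes lower in mCre and in WT, with a median of -0.07 in each. Genes particular to the alpha-beta receptor were not tested. Cd247, a signalling chain that both receptor types use, fell by 0.46 in mCre (adjusted p = 6.98e-07) and by 0.61 in WT (adjusted p = 1.49e-08).

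Between genotypes, 1 of 19 genes of the gamma-delta lineage list rose and 0 fell in mCre-TN, where 3.47% of all genes were called, and 1 rose and 1 fell in mCre-MP, where 4.04% were. Across both subsets 4 rose and 2 fell, against 11.0% of all genes called. Besides 5830411N06Rik, those that rose across subsets included Tmem176a by 0.83 (adjusted p = 0.000473) and its relative Tmem176b by 0.66 (adjusted p = 0.00414), and Actn2, an actin-binding protein gene, fell by 0.38 (adjusted p = 0.0168), a call lost without mCre-MP replicate 1, mCre-TN replicate 2 or WT-MP replicate 2 (0.0542 to 0.0617). Tmem176a, a membrane protein gene, rose in each subset, by 0.81 in TN (adjusted p = 0.0273) and 0.85 in MP (adjusted p = 0.0199). It had 5.34 and 5.54 CPM in mCre-MP, 3.21 and 2.83 CPM in WT-MP, 6.72 and 7.04 CPM in mCre-TN, and 3.26 and 4.41 CPM in WT-TN; DESeq2 did not call it in TN (0.069) or MP (0.0531), within ranges of 0.00604 to 0.169 and 0.00383 to 0.186. The TN call was also lost without either mCre-TN library or WT-TN replicate 1, and the MP call without any 1 of the 4 MP libraries. Id3, an inhibitor of E proteins, fell by 0.30 in mCre-MP (adjusted p = 0.0331), which DESeq2 did not call (0.0658) and which was lost without mCre-MP replicate 2 or either WT-MP library (0.116 to 0.288).

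In the innate-like list, 2 of 27 rose and 0 fell in mCre-TN, against 3.47% of all genes called, and 3 rose and 4 fell in mCre-MP, against 4.04% called. Across both subsets 4 rose and 1 fell, against 11.0% called. Among these, Tox, a transcription factor gene, rose by 0.25 (adjusted p = 0.00289), and Plac8 rose by 0.70 (adjusted p = 0.0273), a call lost without any 1 of 6 libraries (all but the mCre-TN pair; 0.0654 to 0.089). Ikzf2, which encodes the transcription factor Helios, had 16.1 and 17.2 CPM in mCre-MP, 31.2 and 26.5 CPM in WT-MP, 35.4 and 33.1 CPM in mCre-TN, and 23.4 and 22.5 CPM in WT-TN. It rose by 0.57 in mCre-TN (SE 0.09, adjusted p = 0.00153) and fell by 0.79 in mCre-MP (SE 0.10, adjusted p = 6.86e-05). Il12rb2, a chain of the interleukin 12 receptor, had 6.59 and 5.70 CPM in mCre-MP, 10.2 and 9.64 CPM in WT-MP, 5.62 and 4.61 CPM in mCre-TN, and 3.41 and 2.04 CPM in WT-TN. It rose by 0.94 in mCre-TN (SE 0.23, adjusted p = 0.0242) and fell by 0.69 in mCre-MP (SE 0.18, adjusted p = 0.0391). Without mCre-TN replicate 1 or WT-TN replicate 2 its TN call was lost (adjusted p = 0.178 and 0.313), and its MP call was lost in DESeq2 (0.097) and without any 1 of the 4 MP libraries (0.0771 to 0.274). Cd160, a receptor of natural killer and CD8+ T cells, fell in mCre-MP by 0.43 (SE 0.07, adjusted p = 0.00164), Xcl1 fell there by 0.78 (SE 0.14, adjusted p = 0.00201), and Slamf6 rose by 0.33 (SE 0.07, adjusted p = 0.00873). Xcl1 lost its call without mCre-MP replicate 2 (adjusted p = 0.0603), and Slamf6 without mCre-MP replicate 1 (0.0876) or WT-MP replicate 2 (0.124).

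**Figure D4:**
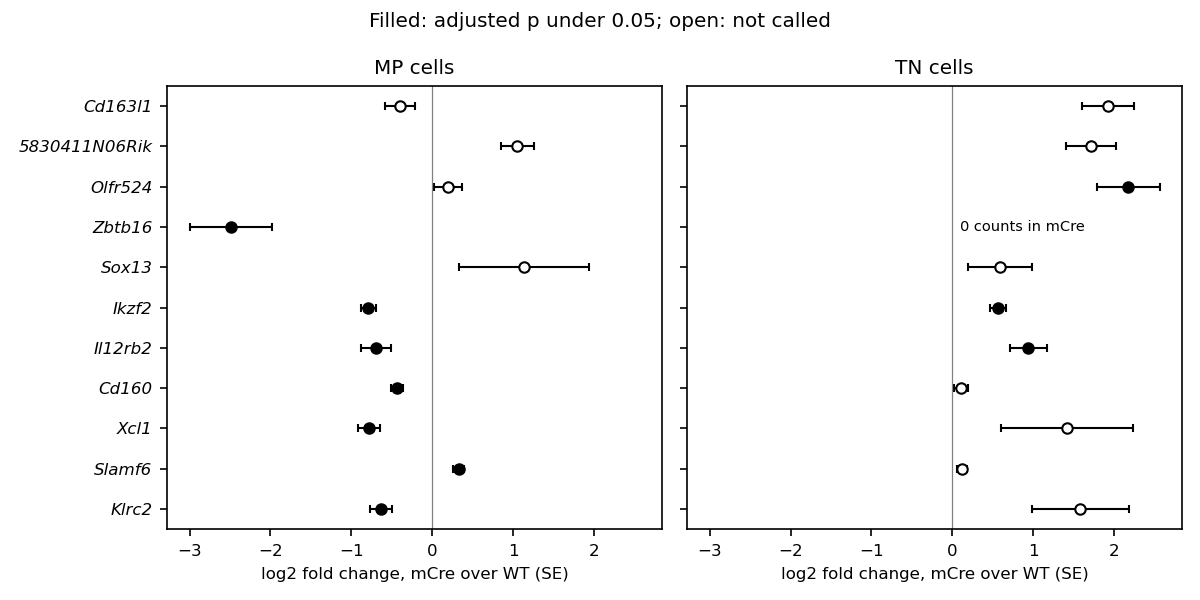
Log2 fold change of mCre over WT with its standard error, in MP cells (left) and TN cells (right), for Cd163l1, its neighbours, Zbtb16, Sox13 and named list genes. Filled points have an adjusted p under 0.05. Cd163l1 is open at -0.40 in MP and at 1.93 in TN. Zbtb16 is filled at -2.49 in MP, a description because it passed the expression filter through WT-MP. Klrc2 was picked by its likeness to Cd163l1, so its points are a description as well.

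The scavenger receptor cysteine-rich family to which Cd163l1 belongs did not move as a block. Of 12 other tested genes, 3 rose and 3 fell in MP in each genotype, against 32.5% of all genes called in mCre and 31.7% in WT. Cd5 and Cd6, which restrain receptor signalling in T cells, fell in MP, Cd5 by 0.79 in mCre (adjusted p = 2.26e-10) and by 0.92 in WT (adjusted p = 2.54e-11), and Cd6 by 0.66 in mCre and 0.86 in WT. Prss12, a secreted protease, had 34.9 and 29.1 CPM in mCre-MP, 49.0 and 50.2 CPM in WT-MP, 7.82 and 10.3 CPM in mCre-TN, and 16.1 and 13.9 CPM in WT-TN. It rose in MP and fell in mCre in both subsets, by 0.64 in MP (adjusted p = 0.00191) and by 0.76 in TN (adjusted p = 0.00511). Lgals3bp, a secreted binding partner of galectin 3, rose in mCre by 0.57 in MP (adjusted p = 0.000226) and by 0.47 in TN (adjusted p = 0.00204). In TN, the Prss12 call was lost without replicate 1 of mCre-TN (0.0771) or of WT-TN (0.0543), and the Lgals3bp call without WT-TN replicate 2 (0.0846). Cd163, the macrophage receptor after which Cd163l1 is named, fell in mCre-MP by 1.70 (SE 0.45, adjusted p = 0.0405), beside the other red-pulp macrophage markers, of which 4 of 12 fell in mCre-MP and 3 of 12 in mCre-TN, Cd163 counted, against 1.97% and 1.92% of all genes lower; DESeq2 did not call Cd163 (adjusted p = 0.0619), and the call was lost without either mCre-MP library or WT-MP replicate 1 (0.141 to 0.369). Across both subsets 9 of the 12 markers fell in mCre and 0 rose, against 5.97% of all genes lower.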

How the data were processed

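The deposited table holds raw counts, whole reads per gene symbol in 8 libraries. The authors used Trim Galore, HISAT2, featureCounts and the mm10 build, per the submitters' processing notes. Tool versions, the use of strand and the handling of multi-mapping reads were not given in the sources used here, so reads of near-identical or antisense genes could be counted for either. Counts were tested with the quasi-likelihood test of edgeR 4.0.16 (R 4.3.3; TMM scaling, robust dispersion, its expression filter) in 1 fit with 4 group means, two-sided, with Benjamini-Hochberg adjustment over 12313 genes and calls at 0.05. DESeq2 1.42.0, other scalings and filters, a replicate block and leaving out each library were alternatives. The mean effect of genotype came from a fit with subset as covariate. CPM is counts per 1000000 total counts; log2 CPM used a prior count of 2, and a count of 0 was given a limit of 3 counts.

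The genes examined and the gene lists were chosen with earlier results of these data known. Named list genes are those with the smallest p among called ones, up to 4 per list and contrast, together with the neighbours of Cd163l1 and the 5 closest genes by correlation; any others are named after their values were seen. The procedure was tested on simulated data. A ratio of gamma-delta to alpha-beta receptor RNA was planned and is not reported here. Coordinates and 3′ UTRs are from GENCODE M21 on GRCm38, promoter windows from RefSeq; of the 3 genes examined, Zbtb16 had no entry among the promoter windows. Text tables and figures were made with Python 3.11.15. Libraries of a group differed beyond counting error (chi-square per degree of freedom 4.32 to 6.43).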

Additional observations from a re-analysis of the deposited data

Results flagged for a closer look

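In 2 genes of the innate-like list the effect of genotype differed between subsets by a test of the difference itself, in a comparison in which 0.130% of genes were called. For Ikzf2 the log2 change of mCre over WT in MP minus that in TN was -1.35 (SE 0.13, adjusted p = 3.74e-05 with edgeR): it fell by 0.79 in MP and rose by 0.57 in TN, and the call held in all 13 alternatives. For Il12rb2 the difference was -1.64 (SE 0.29, adjusted p = 0.0252), with a fall of 0.69 in MP and a rise of 0.94 in TN. That call was lost without mCre-MP replicate 2, mCre-TN replicate 1, either WT-MP library or WT-TN replicate 2, with adjusted p from 0.0574 to 0.238; over 13 alternatives the log2 value ran from -2.02 to -1.28.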

How the results depend on the processing

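With no filter, 783 genes were called between genotypes in TN (427 with the filter), 888 in MP (498) and 81 for the difference between subsets (16), for which DESeq2 called 26. Leaving out each library in turn gave 204 to 446 genes in TN, 195 to 593 in MP, 855 to 1198 across both subsets (1358 with all libraries), 9 to 32 for the difference between subsets, 2797 to 4187 for MP over TN in mCre and 2879 to 3836 in WT. The cause was not tested. With each library left out, directions reversed in 3 cases: the log2 value of Cd163l1 across subsets ran from -0.0584 (without WT-TN replicate 2) to 0.486, that of Sox13 in MP from -1.20 (without mCre-MP replicate 2) to 1.83, and the difference of its genotype effects between subsets from -1.79 (the same library) to 1.24. Changes of scaling moved the median of all genes by under 0.1 on the log2 scale. The labels do not say that a replicate number marks a shared animal or day, and over all genes same-numbered libraries deviated together weakly or not at all: the correlation of deviations was 0.077 between mCre-MP and mCre-TN, 0.109 between WT-MP and WT-TN, and -0.045 to -0.014 for the other pairs. Red-pulp macrophage markers did run with the number in WT, at 62.3 and 54.4 CPM in WT-MP and WT-TN replicate 1 against 39.7 and 39.2 CPM in replicate 2. With the replicate block, 548 genes were called in TN, 617 in MP, 1446 across both, 18 for the difference, 4145 for MP over TN in mCre and 4036 in WT. The ratio of gamma-delta to alpha-beta receptor RNA was planned with an alternative and not run. With few counts, Zbtb16 and Sox13 are limited by depth. Leaving out each library moved the group levels of Sox13 in mCre-MP between 0.0545 and 0.488 CPM.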
